A study of Mus musculus with 16 samples.

Results

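The 10 genes described here make microRNAs (miRNAs) or carry out their action, and all were chosen by their symbols: Drosha, Dgcr8, Xpo5, Dicer1, Ago1, Ago2, Ago3, Tnrc6a, Tnrc6b and Tnrc6c. The choice was made with earlier results of these data known. All 10 were found among the 43626 genes of the read tables and among the 24544 genes of the FPKM table (fragments per kilobase of transcript, scaled to library size, a level per length). In animals, a miRNA starts as a hairpin in a longer transcript. The nuclear Microprocessor of Drosha and Dgcr8 cuts the hairpin out, Exportin-5 carries it to the cytoplasm and Dicer trims it to a duplex. An Argonaute protein keeps one strand and recruits a TNRC6 (GW182) protein, which brings in the enzymes that silence and degrade the matched mRNAs.

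The polyA RNA came from exosomes and from cells of a pair of stromal lines, AFT024 and BFC012, which were made from C57BL/6 fetal liver at 14.5 dpc (days post coitum). Exosomes are small vesicles that cells release. By their labels, AFT024 is supportive of hematopoietic stem and progenitor cells and BFC012 is non-supportive, and each kind is represented by 1 line, so what separates the lines cannot be told apart from support. Exosome RNA from several extractions was pooled and then split into technical replicates that were merged, and every table used here holds 1 value per group. Replication could therefore not be checked for any difference below, and p-values are not given. Intervals are exact Clopper-Pearson 95% intervals and cover counting error only. AFT024 exosomes had 9038471 reads and BFC012 exosomes 16344350, against 39385534 in AFT024 cells and 35874383 in BFC012 cells.

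Of 8 stromal markers, 6 or 7 had 20 or more reads in each group. Thy1 had 1 read in AFT024 cells and 0 in the other groups, and Col1a2 had 5 reads in BFC012 exosomes and 12 in BFC012 cells. Markers of blood, hepatoblasts and endothelium summed to between 7 and 156 reads per list and group. Cd68 gave most of the blood sum of the cells, 150 of 156 for AFT024 and 89 of 96 for BFC012. The erythroid genes Hba-a2, Hbb-bs and Hbb-bt were at 0 in all 4 groups, and Hba-a1 reached at most 2 reads.

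Set side by side as levels per length, the members stood in a different order in exosomes and in cells, as the plot of FPKM by group shows. Xpo5 held the highest FPKM of the 10 in cells, and Ago2 or Drosha the highest in exosomes. In AFT024 exosomes the leading levels were Ago2 at 28.9 FPKM and Drosha at 22.5 FPKM, against Xpo5 at 54.7 FPKM and Drosha at 50.1 FPKM in AFT024 cells. In BFC012 exosomes they were Drosha at 27.8 FPKM and Ago2 at 19.5 FPKM, against Xpo5 at 58.2 FPKM and Drosha at 29.6 FPKM in BFC012 cells. Reads per kilobase of exon, scaled to the group's total reads (RPKM), gave Ago2 the first place in both exosome groups, with 64.8 RPKM in AFT024 exosomes and 32.2 RPKM in BFC012 exosomes, and gave Drosha the first place in AFT024 cells, with 38.5 RPKM against 35.1 RPKM for Xpo5. At the low end by FPKM were Ago3 in AFT024 exosomes with 3.09 FPKM, Tnrc6b in BFC012 exosomes with 3.39 FPKM, and Ago3 in both cell groups, with 2.61 FPKM in AFT024 cells and 3.01 FPKM in BFC012 cells. No interval can be set on an FPKM here, so the order of close neighbours (Drosha at 29.6 FPKM and Dgcr8 at 29.4 FPKM in BFC012 cells) was not resolved.

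**Figure D1:**
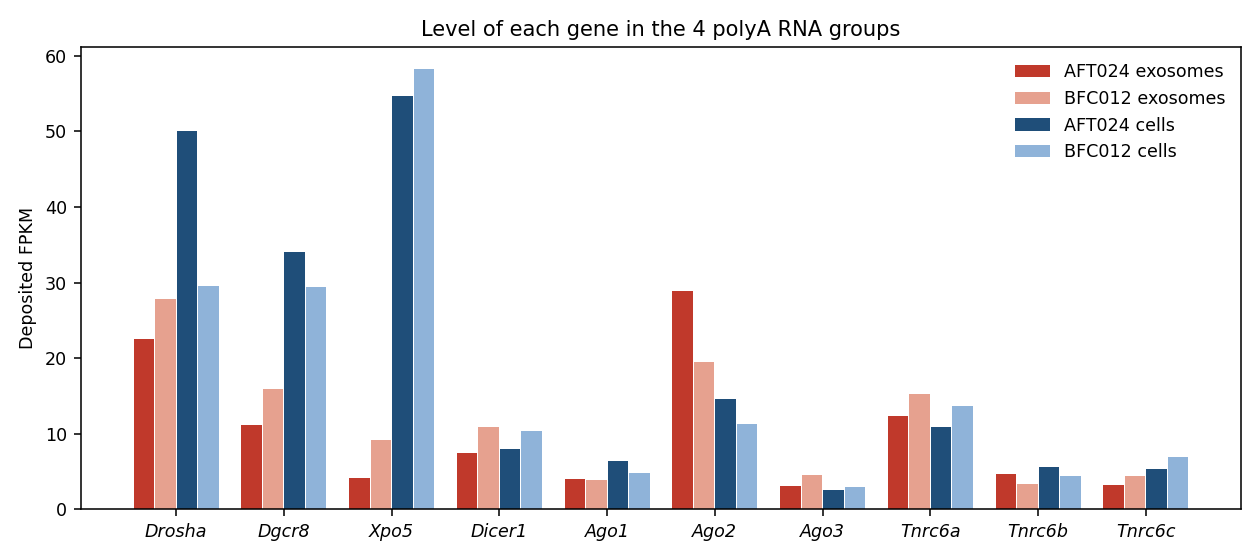
Deposited FPKM (vertical axis, linear) of each of the 10 genes (horizontal axis, in the order of the pathway) in the exosomes (red) and cells (blue) of AFT024 (dark) and BFC012 (light), 1 merged value per bar. Xpo5 stood at 4.13 and 9.21 FPKM in the exosomes of AFT024 and BFC012, against 54.7 and 58.2 FPKM in their cells, and Ago2 was listed higher in the exosomes of each line than in its cells.

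Exosomes were then set against the cells that released them, which asks whether the transcripts of the miRNA machinery are carried in exosomes in the proportions that the cells hold. Ago2 and Xpo5 moved furthest and in opposite directions in both lines: Ago2 rose 5.01-fold in AFT024 exosomes and 3.39-fold in BFC012 exosomes, while Xpo5 fell to 0.198 and 0.315 of its level in the cells of the same lines, in scaled reads. Reads were scaled by median-of-ratios size factors over 14905 genes, and members at or past 2-fold were counted. In AFT024, 5 of 10 members rose past 2-fold in exosomes (Ago2, Ago3, Dicer1, Tnrc6a and Tnrc6b), where 21.2% of all genes tested did so, and 1 fell (Xpo5), where 28.7% of all genes did. In BFC012, 4 of 10 rose (Ago2, Ago3, Dicer1 and Tnrc6a) beside 23.4% of all genes, and 1 fell (Xpo5) beside 26.9%. The median log2 ratio of the 10 members was 0.90 in AFT024 and 0.75 in BFC012, beside -0.25 and -0.11 over all genes tested in the same lines. All 10 passed the filter of 20 reads over both groups in every comparison.

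Deposited FPKM and scaled reads set a different zero between exosomes and cells. On log2(FPKM + 1), the median gene stood at -1.11 for AFT024 exosomes against cells and at -0.80 for BFC012 exosomes against cells, so a member with about equal FPKM in both was above the median gene in exosomes. Read ratios below are therefore given with the FPKM of all 4 groups, and directions that turn with the scale are given with the members. As in any bulk RNA sample, fewer vesicles or cells that hold a transcript and less of it in each cannot be told apart.

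**Figure D2:**
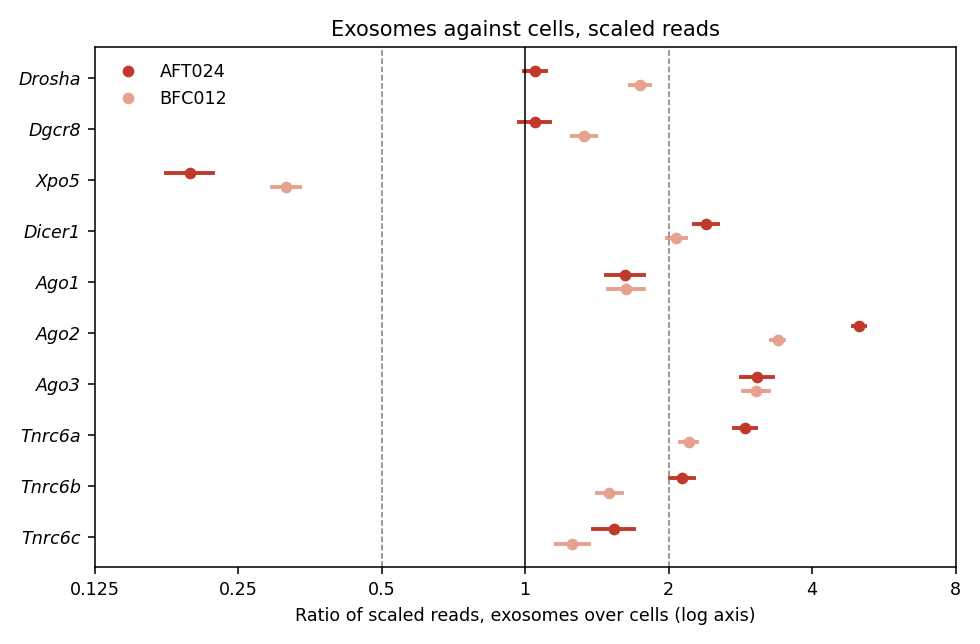
Ratio of scaled reads in exosomes over cells (horizontal axis, log scale) for each gene (vertical axis), AFT024 in dark red and BFC012 in light red, with 95% counting intervals as bars. The solid line marks a ratio of 1 and the dashed lines mark 2-fold; Xpo5 alone lies left of the lower dashed line in both lines, and Ago2 lies furthest to the right.

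In scaled reads the Microprocessor genes were close to even between exosomes and cells in AFT024 and stayed under 2-fold in BFC012. Drosha encodes the RNase III enzyme that cuts the primary transcript and lies at chr15:12824815-12935290 on the plus strand (mm10, as are all loci here). It was listed at 22.5 FPKM in AFT024 exosomes, against 50.1 FPKM in AFT024 cells, and at 27.8 FPKM in BFC012 exosomes, against 29.6 FPKM in BFC012 cells. Its reads numbered 1622 in AFT024 exosomes, against 9001 in AFT024 cells, and 2699 in BFC012 exosomes, against 4815 in BFC012 cells. AFT024 cells thus had the highest FPKM, and the other groups lay close together. The scaled read ratio was 1.05 (0.997 to 1.11) in AFT024, which turned to 0.785 when reads were scaled to the group total instead (RPM, per 1000000 reads) and to 0.995 in FPKM relative to the median gene. In BFC012 it was 1.74 (1.66 to 1.83), short of 2-fold, and 0.944 in FPKM + 1 as deposited.

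Dgcr8 encodes the RNA-binding partner that holds the hairpin for Drosha and lies at chr16:18253948-18289249 on the minus strand. Its level was 11.1 FPKM in AFT024 exosomes, against 34.1 FPKM in AFT024 cells, and 15.9 FPKM in BFC012 exosomes, against 29.4 FPKM in BFC012 cells. Reads came to 840 in AFT024 exosomes, against 4676 in AFT024 cells, and to 1635 in BFC012 exosomes, against 3817 in BFC012 cells. Both exosome groups were below both cell groups in FPKM, while scaled reads gave a ratio of 1.05 (0.973 to 1.13) for AFT024 and 1.33 (1.26 to 1.41) for BFC012. In RPM those ratios were 0.783 and 0.940, and in FPKM + 1 as deposited 0.345 and 0.556, so no direction held across the scalings. Of the 10 members, Dgcr8 had the narrowest spread of scaled reads over the 4 groups, 0.41 log2 units. Its exons overlap those of other genes over 1319 of 7696 bases (825 of them with Trmt2a on the opposite strand), and the library kit named in the labels does not mark strand, so part of its reads cannot be told from those of its neighbours. A further Ensembl entry named Dgcr8 had 0 reads in all 4 groups.

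The Dgcr8 transcript is itself a source of miRNAs. The hairpin of miR-1306 lies inside its second exon, in the coding sequence of a Dgcr8 transcript, and Microprocessor is known to cut hairpins in the Dgcr8 mRNA. It is shown because no other miRNA of a member gene matched in the small RNA tables had over 13 reads of an arm, and it lies at chr16:18284239-18284317 on the minus strand. The sequences are those of RefSeq for GRCm38.p6, 5′ to 3′. In the hairpin the capitals mark the mature arms, and in the arms they mark the seed, bases 2 to 8, which pairs with target mRNAs.
Mir1306 hairpin: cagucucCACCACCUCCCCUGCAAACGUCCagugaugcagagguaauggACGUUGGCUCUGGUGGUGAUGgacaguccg
mmu-miR-1306-5p: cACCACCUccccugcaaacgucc
mmu-miR-1306-3p: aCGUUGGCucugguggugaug

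The seeds differ, so the arms would pair with different sites. The 5p arm had 93 small RNA reads in AFT024 exosomes, against 336 in AFT024 cells, and 78 reads in BFC012 exosomes, against 191 in BFC012 cells. The 3p arm had 24 reads in AFT024 exosomes, against 297 in AFT024 cells, and 22 reads in BFC012 exosomes, against 175 in BFC012 cells. The arms were thus near parity in the cells, and the 5p arm prevailed in the exosomes. Its share of the reads of both arms was 79.5% (71.0 to 86.4) in AFT024 exosomes, against 53.1% (49.1 to 57.0) in AFT024 cells. In BFC012 the share was 78.0% (68.6 to 85.7) in exosomes, against 52.2% (46.9 to 57.4) in cells. Within each line the intervals lay apart, and such a gap in the same direction was found for 18.5% of 281 hairpins in AFT024 and 19.9% of 251 hairpins in BFC012 that had 20 or more reads of both arms in each group. Small RNA depth was 1120450 reads in AFT024 exosomes and 1247068 in BFC012 exosomes, against 17293776 in AFT024 cells and 17547485 in BFC012 cells. Arms of miR-3618, whose hairpin lies in the same exon of Dgcr8, had at most 6 reads in any group.

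**Figure D3:**
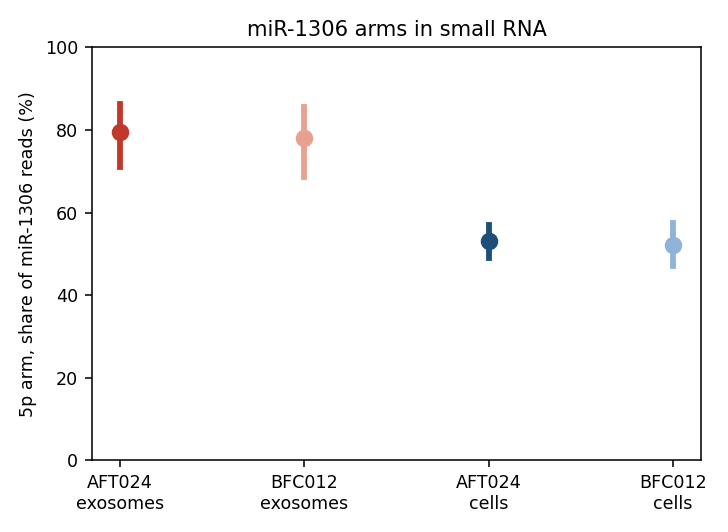
Share of miR-1306 small RNA reads that belong to the 5p arm (vertical axis, percent) in exosomes of AFT024 and BFC012 (red) and in their cells (blue), with 95% counting intervals as bars. The exosome groups stand at 79.5% and 78.0% and the cell groups at 53.1% and 52.2%, and the intervals of exosomes and cells do not meet in either line.

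Xpo5 encodes Exportin-5, the export receptor for precursor hairpins, and lies at chr17:46202855-46242299 on the plus strand. It was listed at 4.13 FPKM in AFT024 exosomes, against 54.7 FPKM in AFT024 cells, and at 9.21 FPKM in BFC012 exosomes, against 58.2 FPKM in BFC012 cells. The read tables held 321 reads in AFT024 exosomes, against 9471 in AFT024 cells, and 944 reads in BFC012 exosomes, against 9298 in BFC012 cells. Cells of the lines were close to each other, and both exosome groups were far below them. In scaled reads Xpo5 fell to 0.198 (0.176 to 0.221) of the cell level in AFT024 exosomes and to 0.315 (0.295 to 0.337) in BFC012 exosomes. It was called lower in both lines under each of the 9 alternatives run. Among these, the threshold of 1.5-fold and the filter of 1 read could not have undone the call. Among genes at 1 FPKM or more in a group, its FPKM stood at percentile 36.0 in AFT024 exosomes, against 81.8 in AFT024 cells, and at 53.7 in BFC012 exosomes, against 83.0 in BFC012 cells. An intronic miRNA of Xpo5, miR-693, had at most 13 reads of an arm in any group.

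Dicer1, which encodes the enzyme that trims the exported hairpin to a duplex, went the other way from Xpo5 in scaled reads. Its locus is chr12:104687742-104751952 on the minus strand. Its level was 7.44 FPKM in AFT024 exosomes, against 7.93 FPKM in AFT024 cells, and 10.8 FPKM in BFC012 exosomes, against 10.3 FPKM in BFC012 cells. Reads were 1532 in AFT024 exosomes, against 3730 in AFT024 cells, and 2984 in BFC012 exosomes, against 4468 in BFC012 cells. Exosomes and cells of a line had nearly the same FPKM, which is above the median gene in exosomes. In scaled reads Dicer1 rose 2.40-fold (2.26 to 2.54) in AFT024 exosomes and 2.08-fold (1.98 to 2.17) in BFC012 exosomes. The ratios were 1.79 in AFT024 and 1.47 in BFC012 in RPM, and with the authors' own size factors the BFC012 ratio was 1.95. As deposited, the AFT024 ratio of FPKM + 1 was 0.946, the opposite direction.

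Because Dicer1 and Xpo5 act one after the other, their reads were also compared with each other inside each group, which needs no scaling between groups. Such shares are of reads, not corrected for length, and are compared between groups only. Dicer1 made up 82.7% (80.9 to 84.4) of the reads of the pair in AFT024 exosomes, against 28.3% (27.5 to 29.0) in AFT024 cells. In BFC012 exosomes it made up 76.0% (74.6 to 77.3), against 32.5% (31.7 to 33.2) in BFC012 cells. The share of Dicer1 was thus larger in exosomes than in cells in both lines. Per length the pair was closer in exosomes than the shares of reads. Dicer1 and Xpo5 stood at 7.44 and 4.13 FPKM in AFT024 exosomes and at 10.8 and 9.21 FPKM in BFC012 exosomes. The same measure for Drosha within Drosha and Dgcr8 was 65.9% (64.0 to 67.8) in AFT024 exosomes, against 65.8% (65.0 to 66.6) in AFT024 cells, and 62.3% (60.8 to 63.7) in BFC012 exosomes, against 55.8% (54.7 to 56.8) in BFC012 cells. In reads, the Microprocessor pair kept its proportion within counting error in AFT024 and moved by a few points in BFC012. In FPKM, Dgcr8 was lower in exosomes by a larger factor than Drosha in both lines. Drosha and Dgcr8 stood at 22.5 and 11.1 FPKM in AFT024 exosomes, against 50.1 and 34.1 FPKM in AFT024 cells. In BFC012 they stood at 27.8 and 15.9 FPKM in exosomes, against 29.6 and 29.4 FPKM in cells.

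**Figure D4:**
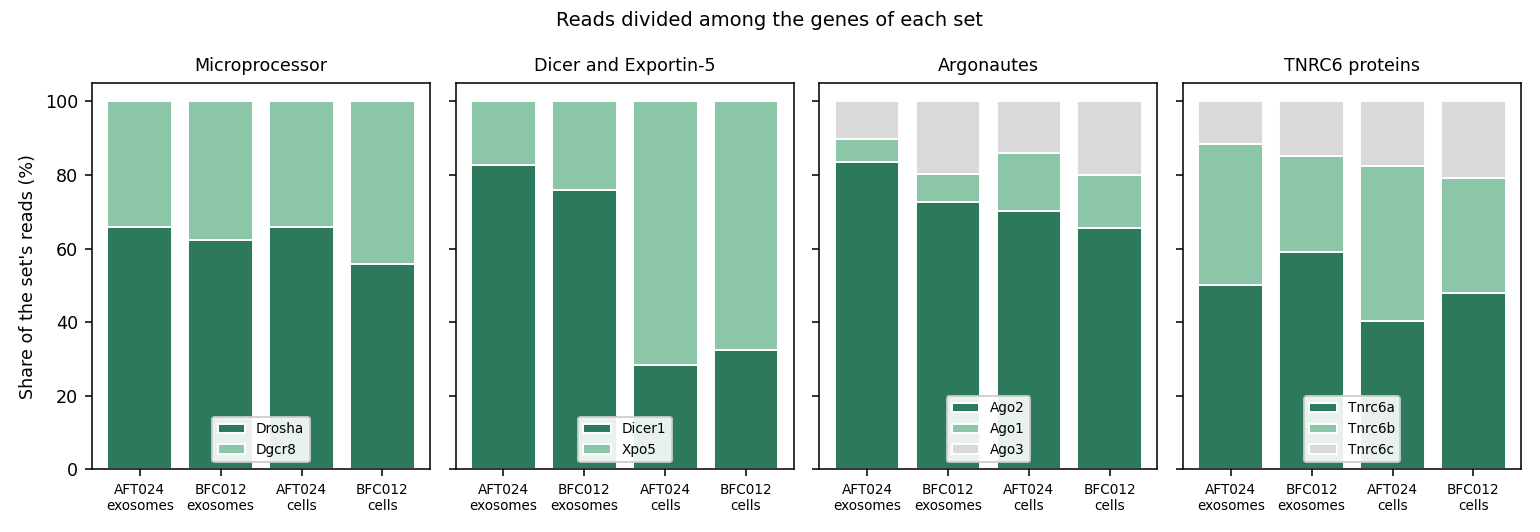
Share of reads (vertical axis, percent) that each gene takes within 4 sets of members, by group. Dicer1 takes 82.7% and 76.0% of its pair with Xpo5 in exosomes of AFT024 and BFC012, against 28.3% and 32.5% in their cells, and Ago2 takes more of the Argonaute reads in the exosomes of each line than in its cells.

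Among the Argonautes, Ago2 and Ago3 rose in the exosomes of both lines and Ago1 stayed under 2-fold, except after upper-quartile scaling in AFT024, where its ratio was 2.002. Ago2, which lies at chr15:73095844-73184840 on the minus strand, encodes the Argonaute that can cut a fully matched target. It was listed at 28.9 FPKM in AFT024 exosomes, against 14.6 FPKM in AFT024 cells, and at 19.5 FPKM in BFC012 exosomes, against 11.3 FPKM in BFC012 cells. Its reads were 8217 in AFT024 exosomes, against 9560 in AFT024 cells, and 7383 in BFC012 exosomes, against 6772 in BFC012 cells. In FPKM, AFT024 exosomes were highest, BFC012 exosomes next and the cells lowest. The scaled read ratios were 5.01 (4.87 to 5.17) in AFT024 and 3.39 (3.28 to 3.50) in BFC012. On the log2(FPKM + 1) scale the differences were 0.93 in AFT024 and 0.74 in BFC012 as deposited, under 2-fold but in the same direction, and 2.05 and 1.54 relative to the median gene. The FPKM of Ago2 stood at percentile 84.0 in AFT024 exosomes, against 50.9 in AFT024 cells, and at 72.9 in BFC012 exosomes, against 43.7 in BFC012 cells.

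Ago3, Ago1 and the non-member Ago4 lie next to each other on the minus strand of chromosome 4, and mammalian Ago1, Ago3 and Ago4 bind miRNAs without the strong cutting activity of Ago2. Ago3 (chr4:126331704-126429556) was listed at 3.09 FPKM in AFT024 exosomes, against 2.61 FPKM in AFT024 cells, and at 4.58 FPKM in BFC012 exosomes, against 3.01 FPKM in BFC012 cells. It had 1011 reads in AFT024 exosomes, against 1923 in AFT024 cells, and 2014 reads in BFC012 exosomes, against 2054 in BFC012 cells. Ago3 had the lowest FPKM of the members in 3 of the 4 groups and rose about equally in both lines, 3.07-fold (2.84 to 3.31) in AFT024 exosomes and 3.05-fold (2.86 to 3.24) in BFC012 exosomes, in scaled reads.

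Ago1 (chr4:126435012-126468583) was listed at 4.01 FPKM in AFT024 exosomes, against 6.44 FPKM in AFT024 cells, and at 3.89 FPKM in BFC012 exosomes, against 4.79 FPKM in BFC012 cells. It had 599 reads in AFT024 exosomes, against 2158 in AFT024 cells, and 777 reads in BFC012 exosomes, against 1482 in BFC012 cells. Its scaled read ratios nearly coincided, 1.62 (1.48 to 1.77) in AFT024 and 1.63 (1.49 to 1.78) in BFC012, while the ratios of FPKM + 1 as deposited were below 1, 0.673 in AFT024 and 0.846 in BFC012. Ago4 was sparse: it had 140 reads in AFT024 exosomes, against 154 in AFT024 cells, but 1 read in BFC012 exosomes, against 5 in BFC012 cells. The FPKM table lists it at 1.05 in AFT024 exosomes, against 0.504 in AFT024 cells, and at 0.326 in BFC012 exosomes, against 0.446 in BFC012 cells, so the cells of the lines, which differ in reads, are close in FPKM.

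Within Ago1, Ago2 and Ago3, Ago2 took 83.6% (82.9 to 84.3) of the reads in AFT024 exosomes, against 70.1% (69.3 to 70.9) in AFT024 cells. In BFC012 it took 72.6% (71.7 to 73.4) in exosomes, against 65.7% (64.8 to 66.6) in cells. Ago1 took 6.10% in AFT024 exosomes, against 15.8% in AFT024 cells, and 7.64% in BFC012 exosomes, against 14.4% in BFC012 cells. In both lines Ago1 thus took a smaller share in exosomes and Ago2 a larger one. Ago3 took 10.3% in AFT024 exosomes, against 14.1% in AFT024 cells, and 19.8% in BFC012 exosomes, against 19.9% in BFC012 cells. The Argonaute genes are related in sequence, and how reads that match more than 1 of them were counted is not given in the sources used here.

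TNRC6 genes encode the scaffold proteins that link Argonautes to the deadenylase complexes. Tnrc6a (chr7:123123885-123195288, plus strand) was listed at 12.3 FPKM in AFT024 exosomes, against 10.8 FPKM in AFT024 cells, and at 15.3 FPKM in BFC012 exosomes, against 13.7 FPKM in BFC012 cells. Its reads were 2164 in AFT024 exosomes, against 4363 in AFT024 cells, and 3593 in BFC012 exosomes, against 5069 in BFC012 cells. It had the highest FPKM of the family in each group. In scaled reads Tnrc6a rose 2.89-fold (2.75 to 3.05) in AFT024 exosomes and 2.20-fold (2.11 to 2.30) in BFC012 exosomes. The BFC012 ratio was 1.56 in RPM.

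Tnrc6b (chr15:80711319-80941086, plus strand) was listed at 4.66 FPKM in AFT024 exosomes, against 5.53 FPKM in AFT024 cells, and at 3.39 FPKM in BFC012 exosomes, against 4.39 FPKM in BFC012 cells. With 1658 reads in AFT024 exosomes, against 4529 in AFT024 cells, it rose 2.14-fold (2.02 to 2.26) in scaled reads, while its FPKM + 1 as deposited had a ratio of 0.867. With 1601 reads in BFC012 exosomes, against 3310 in BFC012 cells, its scaled read ratio was 1.503 (1.42 to 1.60), and 0.814 in FPKM + 1 as deposited. The AFT024 value did not stay past 2-fold in RPM, where it was 1.60.

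Tnrc6c (chr11:117654289-117763439, plus strand) was listed at 3.15 FPKM in AFT024 exosomes, against 5.36 FPKM in AFT024 cells, and at 4.44 FPKM in BFC012 exosomes, against 6.93 FPKM in BFC012 cells. It had 501 reads in AFT024 exosomes, against 1905 in AFT024 cells, and 898 reads in BFC012 exosomes, against 2220 in BFC012 cells. The scaled read ratios were 1.53 (1.39 to 1.69) in AFT024 and 1.26 (1.16 to 1.36) in BFC012, the lowest of the family in each line, and the BFC012 ratio was 0.888 in RPM. In FPKM + 1 as deposited both were below 1, 0.652 in AFT024 and 0.687 in BFC012. Within the family, Tnrc6a took 50.1% (48.6 to 51.6) of the reads in AFT024 exosomes, against 40.4% (39.5 to 41.3) in AFT024 cells. In BFC012 it took 59.0% (57.7 to 60.2) in exosomes, against 47.8% (46.9 to 48.8) in cells. Tnrc6c took 11.6% in AFT024 exosomes, against 17.6% in AFT024 cells, and 14.7% in BFC012 exosomes, against 20.9% in BFC012 cells. The family shifted toward Tnrc6a and away from Tnrc6c in the exosomes of both lines.

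Taking all 10 members as one pool of reads, Ago2 made up 44.5% of it in AFT024 exosomes, against 18.6% in AFT024 cells, and 30.1% in BFC012 exosomes, against 15.6% in BFC012 cells. Xpo5 made up 1.74% in AFT024 exosomes, against 18.5% in AFT024 cells, and 3.85% in BFC012 exosomes, against 21.5% in BFC012 cells. The pool held 2043 RPM in AFT024 exosomes, against 1303 in AFT024 cells, and 1501 in BFC012 exosomes, against 1207 in BFC012 cells. The sum of FPKM as deposited ran the opposite way, with 101 in AFT024 exosomes, against 192 in AFT024 cells, and 115 in BFC012 exosomes, against 172 in BFC012 cells. That sum is not centred on the median gene, which was itself lower in exosomes on log2(FPKM + 1), at -1.11 in AFT024 and -0.80 in BFC012. The lower sum therefore does not set the members apart from all genes.

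All members have long exonic sequence, between 5.94 kb (Drosha) and 23.7 kb (Tnrc6b). Among all genes at least as long as the shortest member, 23.8% rose and 26.8% fell past 2-fold in AFT024 exosomes, with a median log2 read ratio of -0.14. In BFC012 exosomes 27.3% of such genes rose and 22.0% fell, with a median of 0.10. Shorter genes had medians of -0.30 in AFT024 and -0.22 in BFC012. The member medians of 0.90 and 0.75 lay above those of the long genes in both lines, and the part of length in them was not tested.

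The lines were next set against each other in what exosomes held relative to cells. For 5 members the ratio was higher in AFT024 with counting intervals apart (Ago2, Dicer1, Tnrc6a, Tnrc6b and Tnrc6c), where 18.6% of 12535 genes were so placed, and for 3 it was lower in AFT024 (Drosha, Dgcr8 and Xpo5), where 30.4% were. For Ago1 and Ago3 the intervals of the lines overlapped. The Ago2 ratio of AFT024 was 1.48 times that of BFC012, and the Drosha ratio of AFT024 was 0.604 times that of BFC012.

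Compared directly, AFT024 cells and BFC012 cells differed by less than 2-fold in all 10 members: 0 were higher and 0 lower, beside 11.9% and 9.46% of all genes. The largest gap in cells was that of Drosha, at 1.74-fold (1.68 to 1.80) in AFT024 cells relative to BFC012 cells, followed by Ago1 at 1.36-fold (1.27 to 1.45), Ago2 at 1.31-fold (1.27 to 1.36) and Tnrc6b at 1.27-fold (1.22 to 1.33). On the other side were Dicer1 at 0.777 (0.744 to 0.812), Tnrc6c at 0.799 (0.751 to 0.850) and Tnrc6a at 0.801 (0.769 to 0.834). Xpo5 was close to even at 0.948 (0.921 to 0.976).

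Between AFT024 exosomes and BFC012 exosomes, 0 members were higher and 0 lower past 2-fold, beside 14.1% and 15.1% of all genes. Ago2 came nearest to the threshold at 1.95-fold (1.88 to 2.01), and it stood at 2.01-fold in RPM and 2.03-fold after upper-quartile scaling. Tnrc6b was at 1.81-fold (1.69 to 1.94), and Xpo5 was at 0.594 (0.522 to 0.675). Drosha, the widest gap in cells, was at 1.05 (0.987 to 1.12) in exosomes, and Tnrc6a was at 1.05 (0.997 to 1.11). Relative to the median gene in FPKM these were 0.955 for Drosha and 0.963 for Tnrc6a, so the direction of both turned. In the plot of ratios between the lines, Ago1 and Ago3 had nearly the same ratio in exosomes as in cells, 1.35 against 1.36 for Ago1 and 0.877 against 0.871 for Ago3.

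**Figure D5:**
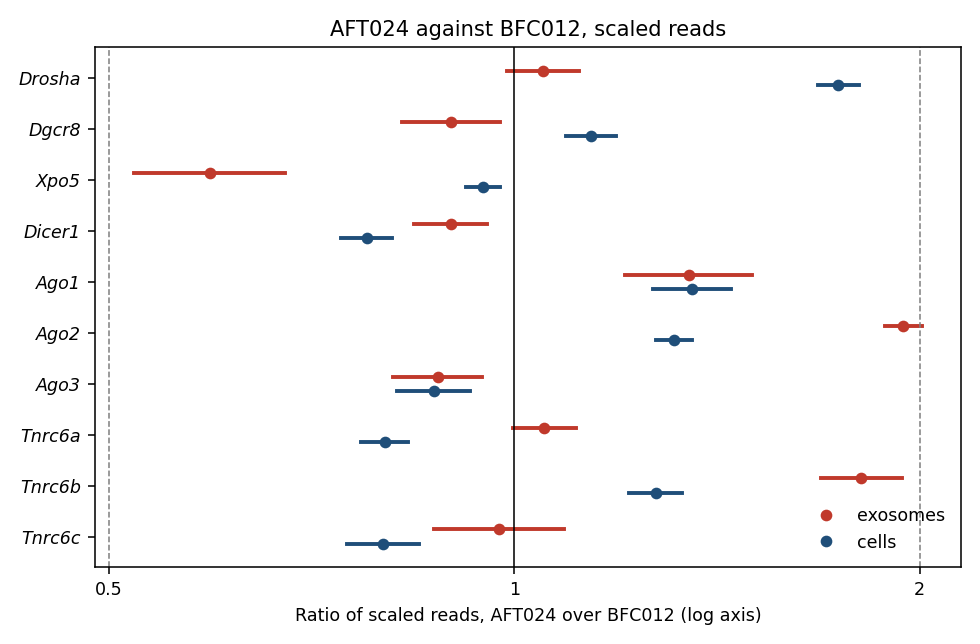
Ratio of scaled reads in AFT024 over BFC012 (horizontal axis, log scale) for each gene (vertical axis), exosomes in red and cells in blue, with 95% counting intervals as bars, a solid line at 1 and dashed lines at 2-fold. Ago2 in exosomes (1.95) lies nearest to the upper 2-fold line and Xpo5 in exosomes (0.594) nearest to the lower one.

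Ago2 had the widest spread of scaled reads over the 4 groups, 2.72 log2 units, followed by Xpo5 with 2.42. The genes whose scaled reads followed Ago2 most closely, out of 7525 with 100 or more reads in each group, were Tet2, Mgat3 and Ghdc, with distances of 0.071, 0.094 and 0.11 log2 units over the 4 groups. Tet2, which encodes an enzyme that oxidises methylated cytosine in DNA, had 393 reads in AFT024 exosomes and 362 in BFC012 exosomes, against 455 in AFT024 cells and 343 in BFC012 cells. With 4 points the likeness is a description only.

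Beyond the 10 members, 55 other genes of the miRNA pathway were counted by role: partners of Microprocessor and Dicer, Argonaute loading factors, decay and translation factors, turnover and tailing enzymes, and proteins linked to the sorting of miRNAs into vesicles. In AFT024 exosomes 8 of 53 tested rose and 21 fell past 2-fold, with a median log2 ratio of -0.79, beside 21.2% and 28.7% of all genes and a median of -0.25. In BFC012 exosomes 7 of 50 rose and 18 fell, with a median of -0.63, beside 23.4% and 26.9% of all genes and a median of -0.11. The median of the wider list thus lay below that of all genes in exosomes, and the median of the members lay above it. By role, the turnover and tailing enzymes were the exception in their median, 0.35 in AFT024 and 0.33 in BFC012. Their counts were not: 2 of 11 rose and 4 fell past 2-fold in AFT024, and 2 of 10 rose and 3 fell in BFC012. The medians by role are of scaled reads and were not taken in FPKM. Among the members, Xpo5 lay far below.

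Of 18 decay and translation factors, 3 rose and 7 fell in AFT024 exosomes, and 4 rose and 6 fell in BFC012 exosomes; the shares of all genes given above apply, and the counts that rose are near them. Dcp1a, which encodes a decapping activator, rose 3.69-fold (3.43 to 3.97) in AFT024 exosomes, with 1180 reads against 1864 in AFT024 cells, and 4.38-fold (4.14 to 4.63) in BFC012 exosomes, with 3061 reads against 2173 in BFC012 cells. Dcp2, the decapping enzyme, rose 3.24-fold (3.01 to 3.48) in AFT024 exosomes and 2.25-fold (2.13 to 2.37) in BFC012 exosomes. Limd1, which encodes a LIM-domain protein that binds Argonautes, rose 4.37-fold (4.15 to 4.59) in AFT024 exosomes and 5.29-fold (5.02 to 5.57) in BFC012 exosomes. Pan3, a subunit of the PAN deadenylase, rose 2.41-fold (2.23 to 2.61) in AFT024 exosomes and 2.43-fold (2.29 to 2.59) in BFC012 exosomes. Tsnax, the partner of translin, had a ratio of 1.85 (1.71 to 2.00) in AFT024 and rose 2.79-fold (2.68 to 2.90) in BFC012 exosomes.

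At the low end stood Ssb, which encodes the La RNA-binding protein. It had 460 reads in AFT024 exosomes, against 16544 in AFT024 cells, and 681 reads in BFC012 exosomes, against 13141 in BFC012 cells, and fell to 0.162 (0.148 to 0.178) of the cell level in AFT024 and to 0.161 (0.149 to 0.174) in BFC012. In AFT024 exosomes Ddx5, a helicase that joins Microprocessor, fell to 0.215, Cnot3, a subunit of the CCR4-NOT deadenylase, to 0.240 and Xrn2, a nuclear 5′-to-3′ exonuclease, to 0.242. In BFC012 exosomes Lsm1, a subunit of the LSM ring in mRNA decay, fell to 0.187, Ptges3, a chaperone partner of HSP90, to 0.236 and Ybx1, an RNA-binding protein linked to miRNA sorting, to 0.241. Most of these also fell past 2-fold in the other line: Ddx5 (0.354) and Xrn2 (0.336) in BFC012, and Lsm1 (0.440) and Ptges3 (0.289) in AFT024. Cnot3 in BFC012 (0.517) and Ybx1 in AFT024 (0.556) were lower but short of 2-fold. Of the 4 genes on the vesicle sorting list, 2 fell in AFT024 exosomes, beside 28.7% of all genes, and 3 in BFC012 exosomes, beside 26.9%; 0 rose, beside 21.2% and 23.4% of all genes.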

How the data were processed

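Members and lists were chosen with earlier results of these data known. The submitters' processing notes name TopHat, Cufflinks, Bowtie and mm10, with no role or version; how reads were counted, and on which annotation release, is not given in the sources used here. PolyA values were deposited as FPKM and, per the file headers, as normalized reads, in decimal commas. Dividing each column of normalized reads by its smallest step gave whole reads for 100% of values within 0.01 reads. For small RNA, the deposited tables between the lines hold whole counts. In the tables read, 0 value columns went unused.

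Read ratios used median-of-ratios size factors over 14905 genes with reads in all 4 groups, with 95% Clopper-Pearson intervals on how the reads of a gene were divided between 2 groups. Genes with 20 or more reads over both groups, or at 1 FPKM in at least 1 group, were counted past 2-fold; no test was made on single values, and the count test that was planned for replicates was not run. Loci are those of the FPKM table with starts counted from 1; exons are those of GENCODE M21. Named genes were all members, Ago4, up to 4 higher and 4 lower genes of the wider list per line with 100 or more reads in the higher group, and the 3 genes nearest to the member of widest spread. The arm share of miR-1306, the miRNAs of the other member genes, and the strata of exonic length were chosen after the values were seen. A tally on simulated reads checked the scripts. Alternatives were other scalings, FPKM in place of reads, other thresholds and filters. Python 3.11.15, numpy 2.4.6, pandas 2.3.3, SciPy 1.17.1 and matplotlib 3.10.9 were used.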

Additional observations from a re-analysis of the deposited data

How the results depend on the processing

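Xpo5 lower, and Ago2 and Ago3 higher, in exosomes of both lines passed 2-fold in RPM, after upper-quartile scaling, with the authors' size factors and in FPKM relative to the median gene. In RPM, 3 members rose past 2-fold in AFT024 exosomes (Ago2, Ago3 and Tnrc6a) and 2 in BFC012 exosomes (Ago2 and Ago3). Of the wider list, 2 rose and 28 fell in BFC012 exosomes in RPM. The share of all genes past 2-fold was not counted in RPM or after upper-quartile scaling. Shares given for median-of-ratios scaled reads do not apply to counts on those scales. In FPKM + 1 as deposited, 0 rose in either line and 3 fell in AFT024 exosomes (Drosha, Dgcr8 and Xpo5). The ratios of Dicer1 and Tnrc6b in AFT024 turned to 0.946 and 0.867. This scale is not centred on the median gene, which itself stood past 2-fold lower in AFT024 exosomes, at -1.11 log2 units. The 3 that fell are therefore not set apart from all genes, whose share on this scale was not counted. In FPKM + 1 relative to the median gene, 2 of 10 members rose past 2-fold in BFC012 exosomes, beside 2996 of 14969 genes. The members thus rose there about as often as all genes did. On the same scale 4 of 10 rose in AFT024 exosomes, beside 3585 of 14969 genes. At 1.5-fold, 7 rose in BFC012 exosomes against cells. The share of all genes at 1.5-fold was not counted for exosomes against cells, so nothing can be read from this 7. Between the lines at 1.5-fold, 1 member was higher in AFT024 cells than in BFC012 cells, beside 19.5% of all genes. In AFT024 exosomes 2 stood higher and 1 lower than in BFC012 exosomes, beside 23.8% and 27.8% of all genes. Between the exosomes of the lines, 1 member (Ago2) was higher in RPM and after upper-quartile scaling. In FPKM relative to the median gene, the share of all genes past 2-fold was 7.76% higher and 5.77% lower between cells, and 9.57% lower between exosomes. Under RPM, upper-quartile scaling and the authors' size factors, each read ratio changes by 1 factor per comparison, given below for exosomes against cells. The cause of the moves in FPKM was not tested. The counts of members whose intervals lay apart between the lines were 5 and 3 with the authors' size factors, which were tried after seeing the data, as were the scalings of the wider list and of the difference between the lines, and the FPKM ratio of each member as deposited. A scaling multiplies all members of a comparison alike: RPM by 0.747 in AFT024 and 0.706 in BFC012 for exosomes against cells, upper-quartile scaling by 1.24 and 1.13, and the authors' size factors by 0.950 and 0.938.

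No paired analysis was possible because each group has 1 merged value, and for the same reason leaving out a replicate was not run. Counts at or under 6 reads limit Ago4 in BFC012 and miR-3618.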
